A study of Xenopus laevis with 64 samples.

Results

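The transcripts of 6 genes of DNA replication and mitosis, pcna.S, cdk1.S, mcm2.L, mcm3.L, mcm4.S and mcm5.L, were followed in the hindlimb and tail of Xenopus laevis tadpoles. Each gene was represented by 1 pair of neighbouring duplicate spots, so these 6 genes took 6 of the 406 spot pairs of a cDNA array, of which 237 carried a gene symbol. They were found by the platform's gene symbols (pcna-A, cdc2, mcm2, Xmcm3, mcm4-A and mcm5), which were updated through their gene identifiers. The endings L and S name the long and short subgenomes of this tetraploid frog. A cDNA spot may also bind the transcript of the partner copy on the other subgenome, so the values below were not shown to come from 1 copy.

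All animals were NF stage 54 tadpoles when exposure began, and each array carried amplified RNA of the hindlimb or tail of 1 animal. The 64 arrays fall into 20 groups. In the hormone experiments tadpoles were kept in T3 (triiodothyronine) at 1.92 nM or T4 (thyroxine) at 10 nM, with 4 arrays in each group, and T3 and T4 each had LSW controls of their own, with 3 arrays in each group. Hindlimbs of these animals were taken at 24 h and tails at 48 h. In the inhibitor experiment tadpoles were kept in 20 mg/L of PTU (propylthiouracil), 100 mg/L of MMI (methimazole) or 4 mg/L of PER (perchlorate), which block hormone synthesis in the thyroid. Hindlimbs were taken at 24 h and 96 h and tails at 48 h, with 3 arrays in each group, and the inhibitors shared 1 control group for each tissue and time. The animals of each group came out of only a few exposure tanks, and their assignment to tanks is not known here. The p-values therefore rest on the spread between single animals and not between tanks.

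The product of pcna is the sliding clamp that holds DNA polymerase on its template. The MCM proteins form the ring-shaped helicase that opens the double helix at replication forks, and the kinase encoded by cdk1, bound to a cyclin, drives cells into mitosis. At metamorphosis thyroid hormone makes the limb bud grow by cell division, while the tail later regresses. Transcripts of these genes are widely used as marks of dividing cells.

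An array had between 22 and 93 spot pairs above background (median 48.5), where background was exceeded when the mean of the duplicate spots was over 2 times the noise SD of the array. Signals below are given in units of that noise SD, which was estimated from the negative values left by background subtraction. The labelled tissues were checked against marker genes. Of 18 muscle markers looked for, 3 were on the array: des.1.S (desmin) was above background on 25 of 26 tail and 6 of 38 hindlimb arrays, tpm4.S (tropomyosin) on 25 and 26, and myf5.L, a gene of muscle precursors, on 4 and 24. Of 20 cartilage and limb bud markers only pitx1.L and col2a1.L were on the array, and they were above background on 1 and 2 of 38 hindlimb arrays, so the limb label had no bright marker here. Both were above background on as many tail arrays, 1 and 2 of 26.

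The clamp gene was the brightest of the 6 genes. The signal of pcna.S exceeded 2 noise SD on 63 of 64 arrays, 38 of 38 from hindlimb and 25 of 26 from tail. It ran from 13.5 to 86.7 noise SD in hindlimb (median 32.9) and from 0.817 to 25.2 in tail (median 10.7). The lowest value was replicate 3 of the tails with PTU, the only array on which pcna.S was not above background. Both of its spots were above 2 noise SD on 62 arrays, and they differed by a median of 1.11-fold.

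The signal of cdk1.S, the mitotic kinase gene, exceeded 2 noise SD on 48 of 64 arrays. These were 35 of 38 hindlimb arrays and 13 of 26 tail arrays. In hindlimb its signal ran from 0.644 to 13.6 noise SD (median 8.02), and in tail from -0.524 to 12.6 (median 2.07). So the kinase transcript was read on most hindlimb arrays and lay at the edge of detection in tail. Both spots were above 2 noise SD on 37 arrays and 1 spot alone on 12, and where both were positive they differed by a median of 1.32-fold.

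**Figure D1:**
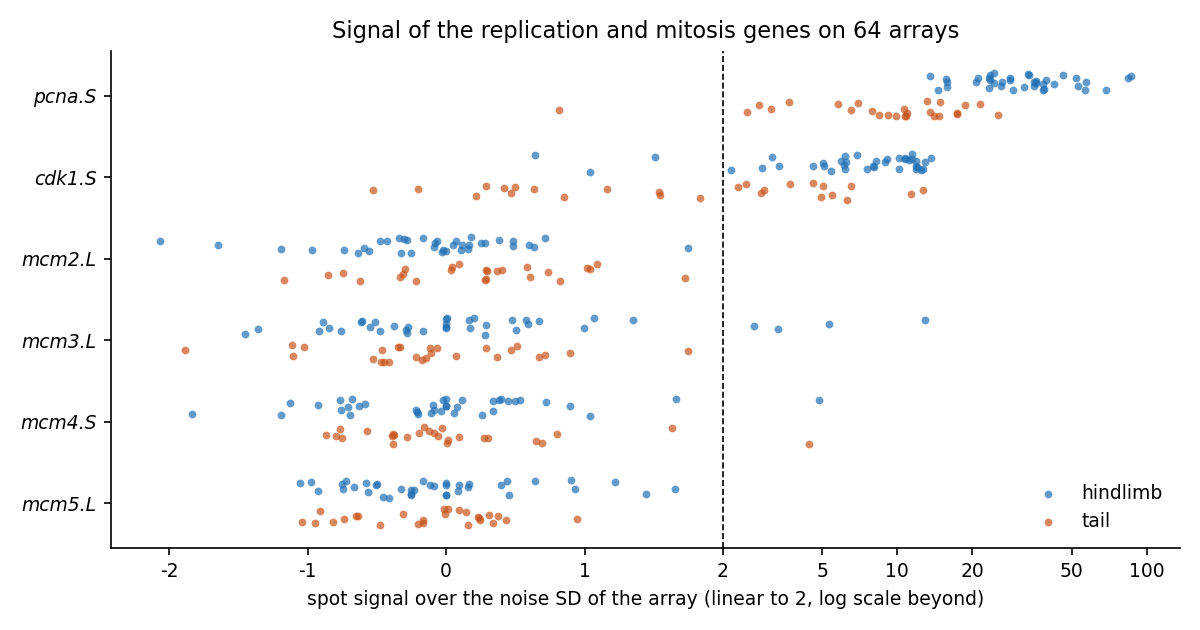
Signal of each gene over the noise SD of its array (horizontal axis, linear up to 2 and logarithmic beyond), 1 point per array, hindlimb in blue and tail in orange, with the dashed line at 2 noise SD. Nearly all pcna.S points lie right of the line, cdk1.S does so on 35 of 38 hindlimb and 13 of 26 tail arrays, and the MCM genes gather around 0.

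The helicase genes were at the level of noise almost everywhere. mcm2.L was above 2 noise SD on 0 of 63 arrays (1 array had both spots blank), with signals between -2.18 and 1.74. mcm5.L was above it on 0 of 64 arrays, with signals between -1.06 and 1.65. The signal was at or below 0 on 29 arrays for mcm2.L and on 39 for mcm5.L. These 2 genes were therefore not detectable with these arrays in any group, which does not show that their transcripts were absent.

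mcm3.L was above 2 noise SD on 4 of 64 arrays, all from hindlimb at 24 h. With PER its signal was 2.66 in replicate 1, 12.9 in replicate 2 and -0.609 in replicate 3. Replicate 2 of the inhibitor controls read 5.30, and replicate 1 of the T3 group read 3.33. On each of these 4 arrays the second spot alone carried the signal: it read 5.24, 24.9, 9.41 and 6.22 noise SD, against 0.0885, 0.847, 1.19 and 0.442 for the first spot. mcm4.S was above 2 noise SD on 2 arrays, at 4.83 on replicate 4 of hindlimb with T4, where its first spot was blank, and at 4.44 on replicate 1 of the tail inhibitor controls, where its spots read 0.697 and 8.18. For the 4 MCM genes there was no array on which both spots exceeded 2 noise SD. The limit of 2 noise SD was near the signals of cdk1.S: the values just outside it were 1.83 (tail inhibitor control replicate 1) and 1.75 for mcm3.L in a tail, and the value just inside it was 2.15 (cdk1.S, hindlimb with PER at 24 h, replicate 3).

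**Figure D2:**
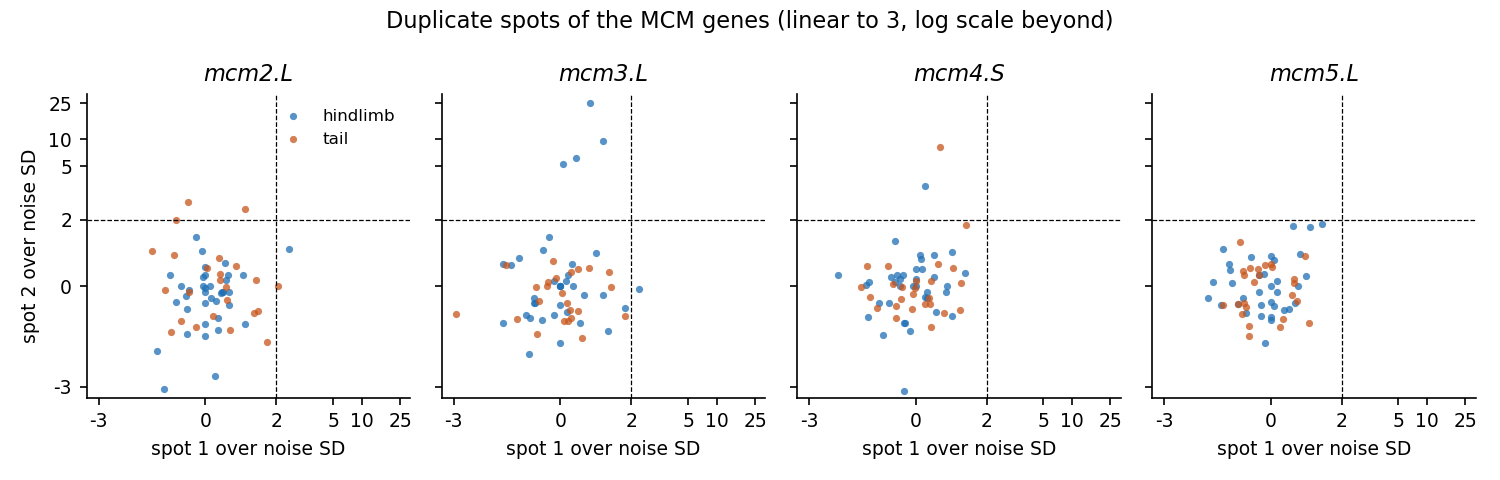
First against second spot of each MCM gene in noise SD (both axes linear up to 3 and logarithmic beyond), 1 point per array with both spots measured, hindlimb in blue and tail in orange, with dashed lines at 2. No point lies past both lines, and the 4 high points of mcm3.L, between 5.24 and 24.9 on the vertical axis, stay under 2 on the horizontal axis.

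The level of pcna.S over the 20 groups fell into a hindlimb range and a tail range. On the log2 scale, with all 64 arrays normalized together, the 12 hindlimb groups held the 12 highest means. The highest was the T3 group at 14.73 ± 0.14 (SD, n = 4), followed by its controls at 14.69 ± 0.31 (n = 3), T4 at 14.67 ± 0.15 (n = 4) and the T4 controls at 14.33 ± 0.21 (n = 3). The other hindlimb means came next, from 14.19 ± 0.12 with PTU at 96 h to 13.69 ± 0.34 with PER at 24 h (n = 3 each). Among the 8 tail groups the means ran from 13.24 ± 0.31 with PER to 12.13 ± 1.39 with PTU and 11.88 ± 0.84 in the inhibitor controls (n = 3 each). Of the 19 steps between neighbours in this order, 2 were larger than the larger SD of the groups on either side. These were the step of 0.33 below the T4 group and the step of 0.45 between the lowest hindlimb and the highest tail group, so the order inside each tissue was mostly within the spread between animals. The hormone and inhibitor experiments were separate sets of arrays, so the place of hormone groups above inhibitor groups cannot be told apart from the set.

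For cdk1.S the groups overlapped more. The highest mean was hindlimb with PTU at 96 h, at 12.78 ± 0.27 (n = 3), and the T3 controls of hindlimb followed at 12.63 ± 0.06 (n = 3). Hindlimb groups held 11 of the 12 highest means, and hindlimb with MMI at 24 h, at 11.19 ± 1.17 (n = 3), was the lowest of them. The highest tail mean was the T3 group at 11.71 ± 0.43 (n = 4), which lay among the hindlimb groups, and the lowest was the tail inhibitor controls at 10.45 ± 0.38 (n = 3). None of the 19 steps between neighbours exceeded the larger SD. The SD within groups ran from 0.06 to 1.17 (median 0.56) for cdk1.S and from 0.11 to 1.39 (median 0.26) for pcna.S.

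**Figure D3:**
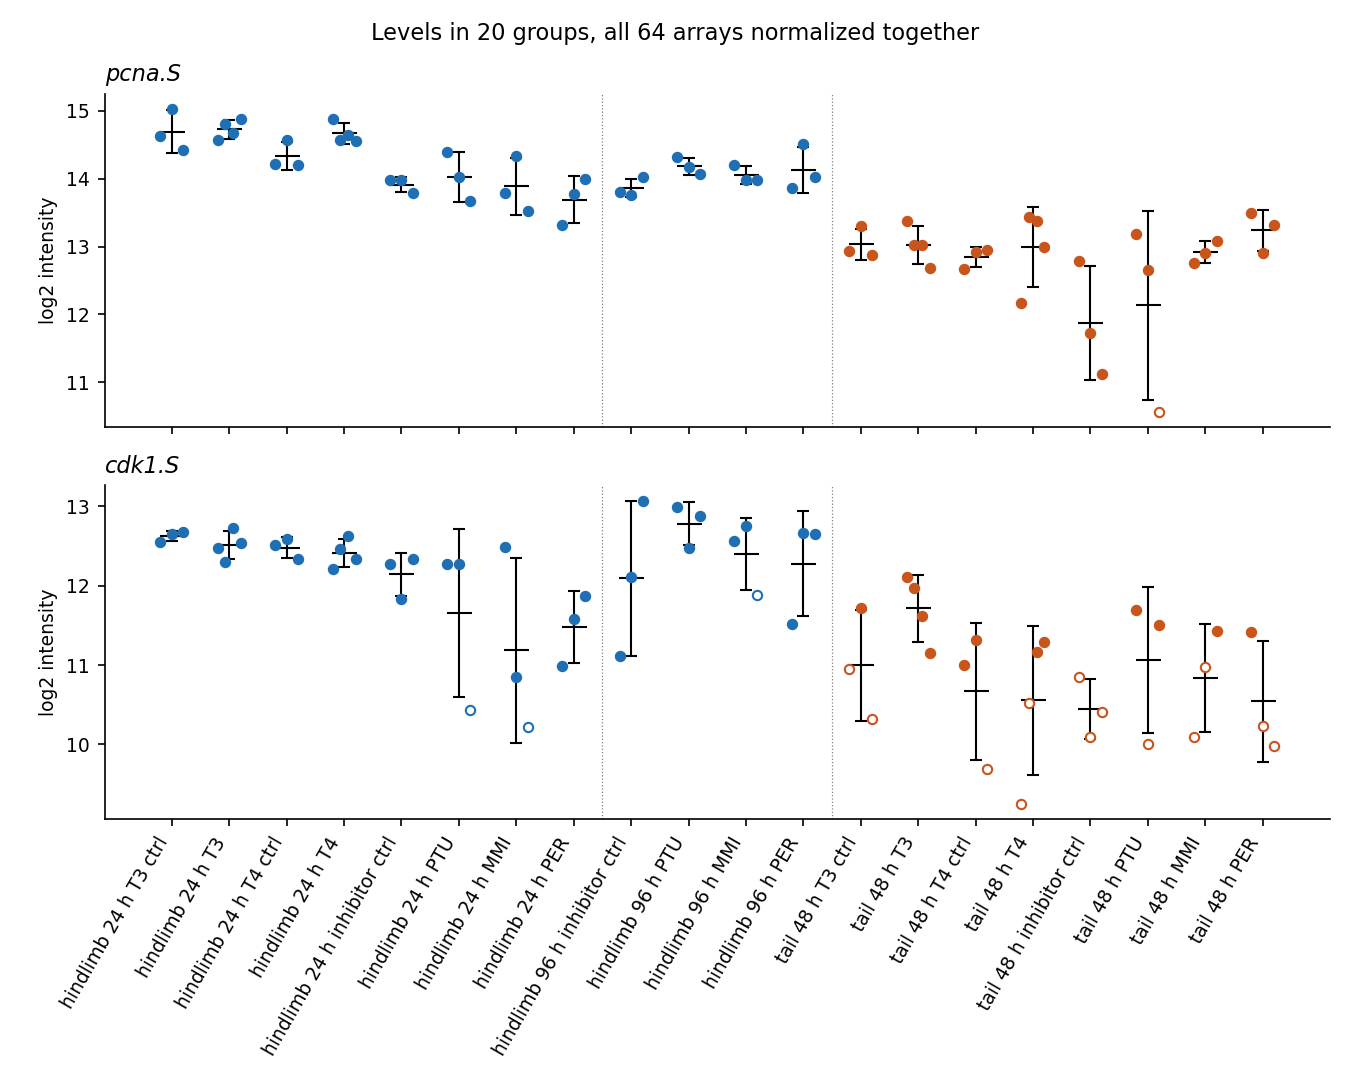
Log2 intensity of pcna.S and cdk1.S in 20 groups, all 64 arrays normalized together, with 1 point per array (open where the signal was not above 2 noise SD), and the group mean and SD in black; blue is hindlimb, orange is tail, and dotted lines part the times and tissues. The tail groups of pcna.S, at means of 11.88 to 13.24, lie below all hindlimb groups, at 13.69 to 14.73, while cdk1.S overlaps.

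Both genes were lower in tail at 48 h than in hindlimb at 24 h. In controls the 2 genes tested were both called lower, at an adjusted p under 0.05, in a comparison where 27.1% of the 70 tested pairs were called lower and 55.7% in either direction. In the controls pcna.S read 36.1 to 68.8 noise SD in the T3 set of hindlimbs, 32.3 to 46.1 in the T4 set and 23.6 to 56.4 in the inhibitor set. In the tails of the same 3 sets it read 5.79 to 10.9, 3.10 to 14.7 and 2.51 to 10.6. The control tails and control hindlimbs did not overlap in any set. The fitted difference was -1.73 on the log2 scale (SE 0.21, n = 9 against 9, limma adjusted p = 9.02e-10), which is a 3.31-fold lower level with a 95% interval of 2.46 to 4.45.

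The kinase gene was also lower in control tails, where it lay mostly at background. cdk1.S read 11.1 to 12.0 noise SD in the hindlimbs of the T3 set, 4.59 to 12.9 in the T4 set and 6.15 to 10.8 in the inhibitor set. In tails it read 0.636 to 2.46, -0.203 to 5.46 and 0.472 to 1.83, and it was above background on 3 of 9 tail arrays. On each of these 3 only 1 spot exceeded 2 noise SD: the spots read 3.29 and 1.64 in replicate 2 of the T3 controls, and 0.412 and 9.44 in replicate 1 and 1.87 and 9.04 in replicate 2 of the T4 controls. On the log2 scale the ranges of the tissues did not overlap in any of the 3 sets. The fitted difference was -1.71 (SE 0.30, n = 9 against 9, limma adjusted p = 3.69e-06). No fold is given for it, since its size rests on tails at background. With the 6 dim tails set to the lowest level above background of their array, an alternative chosen after seeing the data, the difference was -1.22. Because cdk1.S was above background on no tail of the inhibitor controls, the difference of means in that set is also given as a bound, at least 2.56-fold lower. It rests on 3 arrays of each tissue and makes no allowance for the spread between animals.

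In the animals exposed to hormones or inhibitors the direction was the same, and 2 of 3 genes tested were called lower, where 23.3% of the 90 tested pairs were called lower and 58.9% in either direction. Averaged over the 5 agents, pcna.S differed between tissues by -1.34 (SE 0.16, n = 17 against 17, limma adjusted p = 2.24e-10) and was lower than the hindlimb mean in 17 of 17 tails. For cdk1.S the difference was -0.91 (SE 0.22, n = 17 against 17, limma adjusted p = 0.000531), and 15 of 17 tails lay below the hindlimb mean. cdk1.S was above background on 15 of 17 hindlimbs and 10 of 17 tails, so this size rests in part on arrays at background. By agent the mean log2 difference of pcna.S was -1.70 with T3, -1.67 with T4, -1.90 with PTU, -0.97 with MMI and -0.45 with PER. On this scale tails and hindlimbs overlapped only with PER. In noise units they overlapped with MMI (7.94 to 18.7 and 15.9 to 35.4) and not with PER (6.96 to 17.4 and 23.3 to 24.5). For cdk1.S the log2 difference was -1.85 with T4, -0.94 with PER, -0.80 with T3, -0.59 with PTU and -0.35 with MMI. The tissues overlapped in cdk1.S with each of the 3 inhibitors on the log2 scale, and with each of the 5 agents in noise units. For pcna.S 2 of 3 tails with PTU were above background, and the SD of that group was 1.39. For cdk1.S the tails above background were 4 of 4 with T3, 2 of 4 with T4, 2 of 3 with PTU, 1 of 3 with MMI and 1 of 3 with PER.

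With so many pairs called on this array, the number of genes called is no result about replication genes. The share of all tested pairs whose tissues did not overlap was not counted, so the lack of overlap is no result about these genes either. The median difference over all tested pairs was 0.01 in controls and 0.05 in exposed animals, with 35 of 70 and 44 of 90 pairs below 0. The third gene tested in exposed animals, mcm3.L, was above background on 3 of 17 hindlimbs and 0 of 17 tails and was not called (limma adjusted p = 0.0737). It passed in some of the alternatives given below. No fold is given for it, since its bound was under 1.

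Tissue, time and set changed together in this comparison, because tails were taken at 48 h, hindlimbs at 24 h, and the sets of arrays differed in scale in the deposited values. These cannot be told apart. In RNA of whole tissue, fewer cells that express a gene and less RNA per cell cannot be told apart either. The muscle markers differed between the tissues, though not all the same way. Over all hindlimb and tail arrays the median of des.1.S was 0.388 and 12.2 noise SD and that of tpm4.S 6.92 and 13.4. The median of myf5.L went the other way, at 3.97 and 0.517. The summed signal of the 3 of 18 that were on the array ran from 0.0120 to 28.1 noise SD on hindlimb arrays at 24 h (median 10.7) and from 3.57 to 59.9 on tail arrays (median 27.2). The part of muscle content in the lower level of pcna.S and cdk1.S was not tested.

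The D cyclins were lower in tail as well. The list looked for held 16 spot pairs on this array, the 6 genes above included. Among the other 10 were the D cyclins ccnd1.L and ccnd2.L, which carry growth signals to the cell cycle, and gmnn.S (geminin), which limits replication to once per cycle. In controls 2 of these 10 could be tested and 2 were lower in tail, where 27.1% of the 70 tested pairs were called lower. ccnd2.L differed by -2.996 (SE 0.25, limma adjusted p = 1.66e-14) and ccnd1.L by -2.34 (SE 0.29, adjusted p = 8.48e-10). In exposed animals 3 could be tested, and ccnd2.L at -2.52 and ccnd1.L at -1.72 were called lower, where 23.3% of the 90 tested pairs were. Over all arrays ccnd1.L was above background on 38 of 38 hindlimbs and 11 of 26 tails, and ccnd2.L on 37 and 14. The sizes of the D cyclin differences therefore rest in part on tails at background. gmnn.S was above background on 6 of 17 hindlimbs and 1 of 16 tails, so it entered the test mainly through hindlimb. With its dim tails set to the lowest level above background, the tail mean was 10.69 and the hindlimb mean 10.62. Its call (limma adjusted p = 0.00867) is therefore no support for a lower level in tail. No size is given for it, since its bound was under 1. The other 7 (atm.L, ccne1.L, cdk2.S, cdk7.L, pkmyt1.S, lig1.L and rrm1.L) were above background on 0 to 2 hindlimb and 0 or 1 tail arrays and were tested in no comparison.

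Between 24 h and 96 h in hindlimb, cdk1.S rose in the animals given inhibitors. It was the 1 gene called of the 2 tested, where 25% of the 76 tested pairs were called higher and 34.2% in either direction. With PTU it read 5.06, 12.7 and 1.04 noise SD at 24 h and 12.4, 11.8 and 9.10 at 96 h. With MMI it read 8.96, 6.13 and 0.644 at 24 h and 6.91, 7.57 and 1.51 at 96 h. With PER it read 3.14, 5.05 and 2.15 at 24 h and 2.86, 13.6 and 11.9 at 96 h. In noise units the times overlapped with each agent. On the log2 scale, normalized over the hindlimb arrays, the means went from 11.83 ± 1.07 to 13.03 ± 0.31 with PTU, from 11.36 ± 1.19 to 12.60 ± 0.51 with MMI and from 11.62 ± 0.45 to 12.50 ± 0.68 with PER (SD, n = 3 each), and the times no longer overlapped with PTU. Averaged over the 3 agents the difference was 1.11 (SE 0.28, n = 9 against 9, limma adjusted p = 0.00282), a 2.15-fold higher level with a 95% interval of 1.44 to 3.21. All 9 arrays at 96 h lay above the mean of the 9 at 24 h. Among them was replicate 3 with MMI, which at 1.51 noise SD was not above background. cdk1.S was above background on 7 of 9 arrays at 24 h and 8 of 9 at 96 h, so the size rests in part on arrays at background.

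In the inhibitor controls cdk1.S read 6.15, 10.8 and 10.2 noise SD at 24 h and 3.36, 5.40 and 10.1 at 96 h. The fitted difference on the log2 scale was 0.08 (SE 0.49, 95% interval -0.92 to 1.08, limma adjusted p = 0.898), an interval that reaches to both sides of 0. That the rise was larger with an inhibitor than in controls was tested as a difference of effects, and it was not called for any agent. For cdk1.S these differences were 0.80 to 1.16 on the log2 scale, with adjusted p between 0.357 and 0.551.

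The clamp gene moved less. Averaged over the 3 inhibitors pcna.S was 0.28 higher at 96 h (SE 0.12, 95% interval 0.03 to 0.53, n = 9 against 9) and was not called (limma adjusted p = 0.0819), although it was higher than the 24 h mean on 9 of 9 arrays. In controls it differed by -0.05 (SE 0.21, limma adjusted p = 0.898). In controls 0 of 2 genes were called by limma (0 at an unadjusted p under 0.05), against 20% of 40 tested pairs (12 of 40 at an unadjusted p under 0.05). Over all tested pairs the median difference was 0.29 with inhibitors and 0.08 in controls. With inhibitors the value of pcna.S was thus close to the middle of the pairs tested and that of cdk1.S above it. In controls cdk1.S, at 0.08, was close to the middle.

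**Figure D4:**
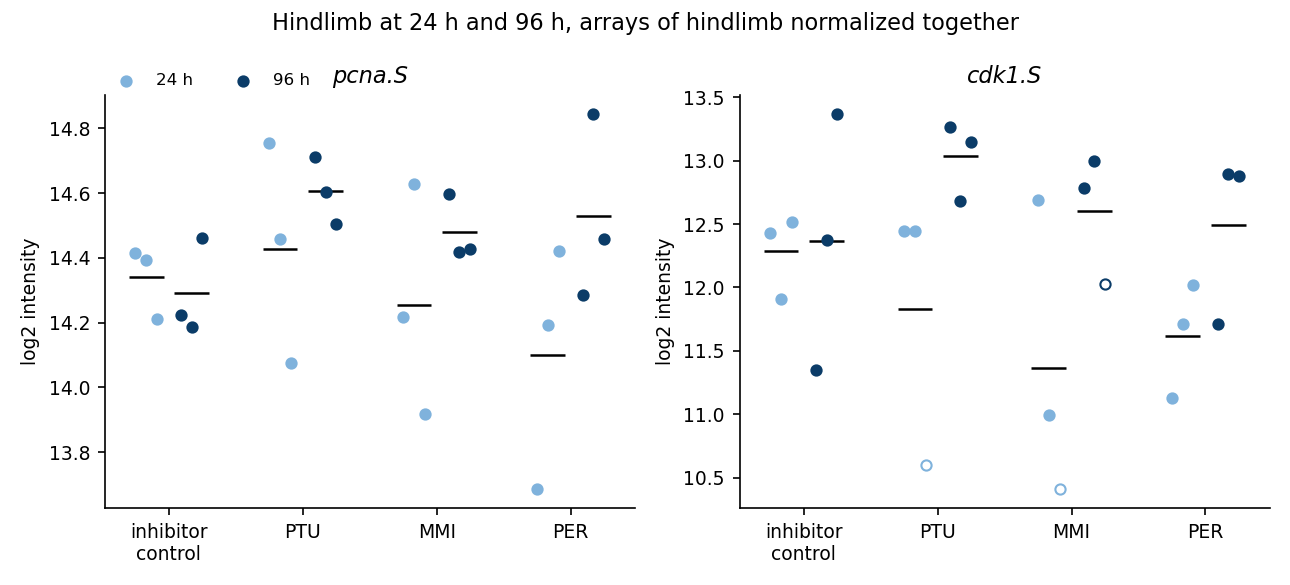
Log2 intensity of pcna.S and cdk1.S in hindlimb at 24 h (light blue) and 96 h (dark blue), 1 point per array (open where not above 2 noise SD) and the mean of each 3 arrays as a bar. The cdk1.S bars rise with PTU, MMI and PER, from 11.36 to 11.83 at 24 h up to 12.50 to 13.03 at 96 h, and stay near 12.3 in the controls.

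The number of pairs above background also differed between these arrays. It was 37 to 65 at 24 h and 56 to 69 at 96 h with PTU, 27 to 48 and 23 to 31 with MMI, 29 to 73 and 39 to 56 with PER, and 32 to 69 and 22 to 39 in controls. The noise SD differed as well. With MMI it was 618 to 1030 at 24 h and 1637 to 1893 at 96 h, and with PTU 456 to 722 and 688 to 996. With PER it was 474 to 744 and 816 to 1828, and in controls 264 to 1340 and 835 to 1928. The part of these differences in the rise of cdk1.S was not tested, and the times were separate sets of arrays, so time and set cannot be told apart. Among the other cell cycle genes 3 were tested over the inhibitors, and ccnd2.L was lower at 96 h by a difference of -0.50 (SE 0.13, limma adjusted p = 0.00282), while ccnd1.L read -0.19 and gmnn.S 0.11 without passing the test. Of all 76 tested pairs, 7 were called lower. In controls ccnd1.L read 0.27 and ccnd2.L 0.18, and neither passed.

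No replication or mitosis gene was called in any of the 13 comparisons of an exposure with its controls, where pcna.S could be tested in 13, cdk1.S in 10 and mcm3.L in 1. The share of all tested pairs called was 0% in 10 of these comparisons, and 10.6%, 6.9% and 2.86% in hindlimb at 96 h with PTU, MMI and PER. At an unadjusted limma p under 0.05 there were 2 differences of pcna.S, 0 of cdk1.S and 0 of mcm3.L. The 2 of pcna.S were in tail with MMI, where 16 of 51 tested pairs were under that limit, and in tail with PER, where 1 of 48 was. The number of arrays limited what could be seen: the SE of a difference was 0.20 to 0.21 for pcna.S in hindlimb and 0.40 to 0.43 in tail, and 0.46 to 0.57 for cdk1.S.

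No difference of pcna.S from controls was called in hindlimb with either hormone at 24 h. With T3 it read 84.1, 86.7, 38.5 and 57.3 noise SD, and its controls read 68.8, 52.8 and 36.1. The log2 difference was 0.02 (95% interval -0.39 to 0.43). With T4 it read 42.7, 38.9, 33.5 and 35.3, its controls read 46.1, 38.3 and 32.3, and the log2 difference was 0.24 (95% interval -0.17 to 0.65). The groups overlapped in noise units in both comparisons. In deposited intensity the 4 arrays with T4, at 27040, 22783, 25034 and 20020, all lay above their controls, at 17494, 19347 and 15676, a ratio of means of 1.35. These intensities carry the scale of the arrays. With T4 the median log2 difference over all 44 tested pairs was 0.20 without normalization and -0.16 with it. The share of all tested pairs that did not overlap was not counted. For cdk1.S the differences were -0.14 with T3 (95% interval -1.08 to 0.79) and -0.09 with T4 (95% interval -1.02 to 0.85).

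In tail, pcna.S differed from controls by 0.01 with T3 (95% interval -0.84 to 0.85) and by 0.10 with T4 (95% interval -0.74 to 0.95). cdk1.S was above background on 4 of 4 tails with T3, at 12.6, 11.3, 2.93 and 2.83 noise SD, and on 1 of 3 of their controls, at 1.55, 2.46 and 0.636. All 4 exposed tails were thus above the 3 control tails in noise units. The noise SD differed between these groups, at 393 to 1135 with T3 and 1042 to 1260 in controls, and the deposited intensities overlapped, at 1606 to 4961 and 663 to 2839. On the log2 scale the groups overlapped and the difference was 0.78 (SE 0.57, 95% interval -0.40 to 1.96, limma adjusted p = 0.684). With T4 cdk1.S was above background on 2 of 4 tails and, through 1 spot each, on 2 of 3 controls, and the difference was -0.10 (95% interval -1.28 to 1.08).

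With inhibitors the mean of cdk1.S in hindlimb was below that of controls at 24 h and above it at 96 h, with no difference called. At 24 h 2 of 3 arrays with PTU, 1 of 3 with MMI and 0 of 3 with PER lay above the control mean. At 24 h the log2 differences were -0.45 with PTU, -0.92 with MMI (95% interval -1.92 to 0.08) and -0.67 with PER. At 96 h they were 0.67 with PTU (95% interval -0.33 to 1.67), 0.24 with MMI and 0.13 with PER. Without replicate 1 of the MMI group the difference at 24 h was -1.58 and passed (limma adjusted p = 0.0496), and without replicate 3, which was not above background, it was -0.45. Without replicate 3 of the PTU group, also not above background, the PTU difference was 0.15. The 3 agents shared their control arrays at each time, so their common side is not 3 separate findings. At 24 h the deposited intensity of cdk1.S in these controls was 3579, 2846 and 13619, a mean of 6681 ± 6019 (SD, n = 3) with the third array far above the others. For pcna.S the hindlimb differences were -0.24 to 0.09 at 24 h and 0.19 to 0.32 at 96 h.

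**Figure D5:**
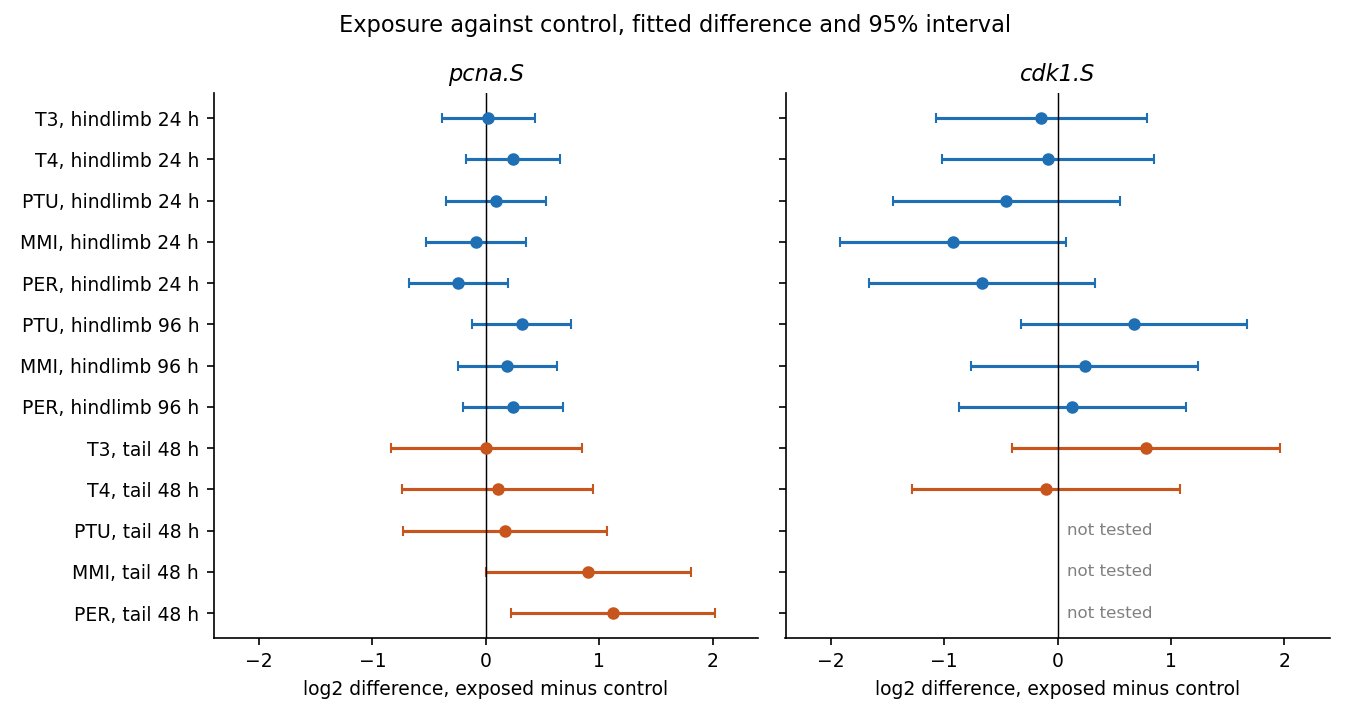
Fitted log2 difference between exposed and control arrays (horizontal axis) with its 95% interval, for pcna.S and cdk1.S in 13 comparisons, hindlimb in blue and tail in orange. The intervals of pcna.S with MMI and PER in tail are the only ones that do not cover 0, and neither passed after adjustment; cdk1.S was too dim to be tested in tail with PTU, MMI and PER.

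Of the 13 differences of pcna.S from controls, the largest were in tails with PER and MMI. The inhibitor controls read 10.6, 3.67 and 2.51 noise SD, the tails with MMI 9.87, 7.94 and 18.7, those with PER 17.4, 6.96 and 9.20, and those with PTU 10.8, 6.49 and 0.817. The deposited intensities were 2868, 1398 and 528 in the controls, 4201, 5575 and 13925 with MMI, and 6898, 2092 and 4628 with PER, so that the first control array reached into the PER range and lay below all MMI arrays. The log2 difference was 1.12 with PER (SE 0.43, 95% interval 0.22 to 2.02, limma adjusted p = 0.808), with 3 of 3 tails above the control mean and no overlap after normalization. With MMI it was 0.91 (SE 0.43, 95% interval 0.01 to 1.81, limma adjusted p = 0.157), with 3 of 3 tails above the control mean. With PTU it was 0.17 (95% interval -0.73 to 1.07). These agents share 1 control group, whose SD was 0.75 on the log2 scale. Without its replicate 3 the differences were 0.79 with PER and 0.57 with MMI, and without its replicate 1 they were 1.52 and 1.31.

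Per the labels, the study itself listed genes whose level changed at least 2-fold and varied little between replicates. As ratios of mean deposited intensity, exposed over control, pcna.S lay between 0.709 and 4.94 over the 13 comparisons (median 1.17) and reached 2 in 2 of them, tail with MMI at 4.94 and tail with PER at 2.84. These ratios carry the scale of the arrays. Without normalization the median log2 difference over all tested pairs was 0.89 in tail with MMI and 0.15 in tail with PER. Neither of these 2 changes of pcna.S passed the limma test on normalized values. For cdk1.S the ratio lay between 0.328 and 5.86 (median 1.01). In tail it was 5.86 with MMI, 4.54 with PTU, 2.44 with PER and 2.04 with T3. In hindlimb at 24 h it was 0.497 with PTU and 0.328 with PER. Exposed and control arrays overlapped in each of these. The tails of the inhibitor controls lay at background for cdk1.S and were not tested against the inhibitors, and the other changes were not called.

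Whether an exposure acted differently in tail and hindlimb was tested as a difference of effects, and no gene was called by limma for any of the 5 agents (at an unadjusted p under 0.05, pcna.S in 2, mcm3.L in 1 and cdk1.S in 0). The 2 of pcna.S were with MMI and PER, and that of mcm3.L was with PER. Of all tested pairs, 5 of 63 with MMI and 7 of 67 with PER were under this unadjusted limit. The share of all pairs called was 2.99% for PER, 1.59% for T4, 1.56% for PTU and 0% for T3 and MMI. For pcna.S these differences, tail minus hindlimb, ran from -0.18 with T4 to 1.58 with PER, and the value with PER had a limma adjusted p of 0.0854. Without replicate 1 of the tail inhibitor controls it was 2.04 and passed (adjusted p = 0.00658). For cdk1.S they ran from -0.04 to 1.34, with adjusted p between 0.514 and 0.996, and those of the inhibitors rest on control tails at background. Between 96 h and 24 h the effects on pcna.S differed by 0.23 to 0.48, with adjusted p between 0.441 and 0.840. For these differences over time limma called 0 genes (0 at an unadjusted p under 0.05), and 3.12% of the pairs were called with PER and 0% with PTU and MMI. Under the unadjusted limit were 15 of 64 tested pairs with PER, 8 of 65 with PTU and 4 of 48 with MMI. The differences of mcm3.L with PER were not called either and rest on the single bright spots described above.

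Among animals of 1 group, the relation between deviations of pcna.S and cdk1.S from their group means changed with the scaling. Over the 38 hindlimb arrays Pearson's r was 0.47 (permutation p = 0.0664, Benjamini-Hochberg adjusted over both tissues 0.133) and Spearman's rho 0.42 (p = 0.0444, adjusted 0.0887), and without the 2 arrays farthest in pcna.S r was 0.54. Within the 4 hindlimb sets r ran from -0.10 to 0.59 and was above 0 in 2. Over the 26 tail arrays r was 0.19 (permutation p = 0.592) and rho 0.38 (p = 0.0992), r was 0.33 without the 2 farthest arrays, and within the 3 sets r ran from 0.02 to 0.88. So no relation passed after adjustment on quantile normalized values. With median centring r was 0.65 in tail (permutation p = 0.00972, rho 0.69, p = 0.0019) and 0.47 in hindlimb (permutation p = 0.0464, rho 0.28, p = 0.168). The arrays also share their scaling: with the deposited values as they stand r was 0.83 in hindlimb and 0.68 in tail.

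The genes whose 20 group means were most like those of pcna.S, among 37 other named genes above background on at least 10 arrays, were ccnd2.L (Pearson's r = 0.91), gmnn.S (0.87) and ccnd1.L (0.83). For cdk1.S they were ywhab.L (0.85), which encodes an adaptor of the 14-3-3 family, ccnd2.L (0.80) and ccnd1.L (0.79). The means of pcna.S and cdk1.S correlated at 0.85 over the 20 groups, at 0.68 over the 12 hindlimb groups and at 0.18 over the 8 tail groups. These are descriptions over groups that share arrays and differ by tissue. Over the 12 hindlimb groups alone pcna.S read 0.23 with ccnd2.L, 0.79 with gmnn.S and -0.31 with ccnd1.L, and cdk1.S read 0.49 with ywhab.L, -0.35 with ccnd2.L and -0.25 with ccnd1.L. Over the 8 tail groups alone pcna.S read 0.71 with ccnd2.L, 0.27 with gmnn.S and 0.20 with ccnd1.L. gmnn.S was above background on 10 of 64 arrays, so most of its group means lie at background.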

How the data were processed

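Per the labels' protocols, each cDNA array received P32-labelled, amplified RNA from the hindlimb or tail of a single tadpole. The authors deposited linear spot intensities after background subtraction (19.9 to 50.6% of an array's spots lie below 0), from which log2 values were computed here. For scanner, background method and scaling, no source used here gives details. The arrays form 7 sets by tissue, time and experiment, each with 1 array of whole numbers only, and the sets differ in scale.

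The noise SD of an array is the median size of its negative values, scaled to a normal SD. Intensities were passed through normexp (offset 50), put on the log2 scale, quantile normalized over the arrays fitted (38 hindlimb, 26 tail, or all 64 for the tissues) and averaged over duplicate spots. The offset shrinks the changes of dim spots. limma 3.58.1 (R 4.3.3, statmod 1.5.0) fitted 1 coefficient per group. Pairs over 2 noise SD on at least 3 of the arrays compared were tested, and p-values were adjusted by Benjamini-Hochberg over all tested pairs of a comparison, at 0.05. The comparison of exposed tissues weights the 5 agents equally. A bound sets the mean of the brighter group against the lowest level above background on each dim array, without allowance for the spread between arrays. Permutations (within groups) and figures used Python 3.11.15 with scipy 1.17.1. The limma fit was tested on simulated log2 values with changes set in bright pairs only. Background correction, normalization, the filter and dim pairs were not part of that test. Symbols came from the platform annotation, updated for 233 of 237 pairs through Xenopus_laevis_v10.1, which served for names only.

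The genes, lists and comparisons were chosen with earlier results of these data known. Detection is given for all 6 genes, and differences where a gene could be tested. Where groups are said not to overlap, the share of all tested pairs that do not overlap is not given. Other genes are named where they belong to the cell cycle list and could be tested, or are among the 3 most like a gene by r over group means. Alternatives covered scaling, background, filters, spots, array weights, arrays fitted, the replicate number as a block and each array left out.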

Additional observations from a re-analysis of the deposited data

How the results depend on the processing

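The lower levels of pcna.S and cdk1.S in tail and the rise of cdk1.S over time with inhibitors kept their direction and stayed past the threshold in all 180 alternatives with a test run for these 5 differences. Most of the 180 were fits with 1 array left out, which share nearly all their arrays. With the replicate block the sizes were fixed by the balanced replicate numbers, so that only the p-values could change there. The filters and the limit to complete pairs changed which pairs were tested and not the sizes. For pcna.S the alternatives gave -2.25 to -1.55 in controls and -2.01 to -1.18 in exposed animals, for cdk1.S -2.17 to -1.33 and -1.18 to -0.63, and for cdk1.S over time 0.90 to 1.58. cdk1.S has 1 blank spot, so with complete pairs only it dropped out and 1 gene was called between tissues, in controls and in exposed animals. In exposed animals the count also rose to 3, as mcm3.L passed in some alternatives. It passed in 2 of 10 settings. These were the deposited values (-0.82, limma adjusted p = 0.0101) and normexp replaced by a floor (-0.30, adjusted p = 0.0472). With arrays left out it passed in 4 of 31 fits. These were without hindlimb PER replicate 3 (-0.61), T3 replicate 4 (-0.57) or T4 replicate 2 (-0.53), or tail T3 replicate 3 (-0.53). Its adjusted p ran from 0.0101 to 0.338. mcm3.L was in this test only through 3 of 17 hindlimbs, each with 1 bright spot alone, and was above background on 0 of 17 tails. These passes are therefore no support for a lower level in tail. Median centring, bright centring (on the bright pairs) and the deposited values moved the median of all tested pairs between control tissues from 0.01 to -0.17, 0.38 and -0.21, and in the inhibitor controls over time from 0.08 to -0.54, 0.22 and 0.32.

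For pcna.S over time with inhibitors 2 genes instead of 1 were called with the deposited values (0.60, adjusted p = 0.0318), the first spot only (0.33) and array weights (0.33), and the count was 1 to 2 when arrays were left out: pcna.S passed without replicate 1 of PTU (0.34), replicate 3 of PER (0.33) or replicate 2 of MMI at 24 h (0.35), or replicate 1 of PER at 96 h (0.32). Its adjusted p ran from 0.0199 to 0.757. The difference of the PER effects on pcna.S (tail against hindlimb) gave 1 call with the second spot only (2.06) and with array weights (1.80). With arrays left out it gave 0 to 1, the call coming without replicate 1 of the tail inhibitor controls (2.04, adjusted p = 0.00658). In hindlimb with MMI at 24 h the count was also 0 to 1, cdk1.S passing without MMI replicate 1 (-1.58, adjusted p = 0.0496).

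Of 1144 alternative values for pcna.S, cdk1.S and mcm3.L, the genes that could be tested, 64 changed sign, none of a difference past the threshold and none past it in the alternative. In hindlimb with T3 at 24 h pcna.S read -0.020 with the second spot only and -0.013 with the replicate block; left-out arrays gave -0.074 to 0.14. With T4 cdk1.S read 0.043 with median centring, 0.15 with bright centring, 0.43 with the deposited values and 0.063 with the first spot only. With MMI at 24 h pcna.S read 0.079 with the deposited values, and -0.28 to 0.083 with arrays left out. With PTU at 24 h left-out arrays gave -0.076 to 0.27 for pcna.S and -0.76 to 0.15 for cdk1.S. At 96 h the second spot only gave -0.061 (MMI) and -0.38 (PER) for cdk1.S, left-out arrays -0.27 to 0.74 and -0.38 to 0.63, and bright centring -0.16 for pcna.S with PER. In tail pcna.S read -0.13 with T3 on the second spot only, -0.11 with T4 under bright centring and -0.20 with PTU on the first spot only, and left-out arrays gave -0.076 to 0.098, -0.0046 to 0.29 and -0.30 to 0.89. cdk1.S with T4 in tail read 0.34 on the first spot only, and -0.64 to 0.35 with arrays left out. In the inhibitor controls over time pcna.S read 0.17 with bright centring, 0.27 with the deposited values and 0.17 with the first spot only (left out, -0.13 to 0.0033), and cdk1.S read -0.59 with median centring, -0.019 with the first spot only and -0.10 with array weights (left out, -0.42 to 0.58). For differences of effects on pcna.S over time, bright centring gave -0.069 (PTU) and -0.16 (PER) and the deposited values -0.013 (PTU). Between tissues, pcna.S read 0.22 with T3 and 0.017 with T4 under median centring, and 0.077 (T3) and -0.32 (PTU) on the first spot only, and cdk1.S with T4 read 0.24 on the first spot only. Left-out arrays gave -0.22 to 0.092, -0.33 to 0.087 and -0.38 to 0.93 for pcna.S with T3, T4 and PTU, and -0.53 to 0.39 for cdk1.S with T4. The causes were not tested.

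With a threshold of 1 noise SD in place of 2, mcm2.L, mcm3.L, mcm4.S and mcm5.L counted as above background on 5, 7, 5 and 3 arrays. The relation between pcna.S and cdk1.S within groups gave r = 0.47 (permutation p = 0.0464) in hindlimb and 0.65 (p = 0.00972) in tail with median centring, and 0.83 and 0.68 with the deposited values. For animals of the same replicate number in different groups, the deviations from group means were correlated. Over 66 such pairs the correlation ran from -0.46 to 0.47, with means per set of -0.10 to 0.19. Of 60 arrays, 17 correlated best with their own number. Deviations from the means of such small groups cannot decide whether arrays of 1 number were handled together. With the replicate block pcna.S between control tissues read -1.73 and cdk1.S over time 1.11, the same as without it. These sizes could not move, since each replicate number occurs equally on both sides of the difference, and only the SE and p-value could. The count of genes called changed in 0 comparisons. The MCM genes and cdk1.S in tail were limited by signal over background.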
